A study of Homo sapiens with 36 samples.

Results

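The transcripts described here encode 9 enzymes and iron-storage proteins of the NRF2 antioxidant response: NQO1, TXNRD1, SRXN1, GCLC, GCLM, HMOX1, FTH1, FTL and ME1. They were taken by symbol from a table of 25344 gene symbols as established NRF2 targets of quinone, thioredoxin, glutathione, heme, iron and NADPH metabolism, and all 9 were found. The 9 genes and the further gene lists below were chosen with earlier results of these data known. Counts of changed genes set beside shares of all genes are therefore descriptions, not independent support. Of the 9 genes, 8 passed the filter on low counts. GCLM, with 0 to 9 counts per library, did not, and is described by its values. The study exposed HMC3, an established human microglial cell line, to perfluorooctane sulfonate (PFOS), a persistent fluorinated surfactant, to follow transcription during exposure and after its removal. RNA-seq was done on 6 groups of 3 libraries. At 24 h the groups had received vehicle, 25 µM PFOS or 50 µM PFOS, and the recovery groups had the same 24 h exposure followed by 24 h in medium free of PFOS. All groups were grown in high-glucose DMEM with fetal bovine serum, and the labels name no engineered allele. The 18 H3K27ac CUT&Tag libraries of the series were not analysed here.

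NRF2 (gene NFE2L2) is a transcription factor that KEAP1 holds in the cytoplasm and marks for degradation. Oxidants and electrophiles modify cysteines of KEAP1, NRF2 then accumulates, pairs with small MAF proteins and binds the antioxidant response element (ARE) of its targets, while BACH1 competes for the same sites. In microglia, the resident macrophages of the brain, this program is known for supplying reducing power and glutathione, for binding iron and for degrading heme.

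RefSeq promoter windows (GRCh38.p14), reaching from 250 bases before to 50 bases after an annotated start site, were found for 7 of the 9 genes: NQO1, FTL, TXNRD1, GCLM, GCLC, SRXN1 and ME1. All of these windows were searched for the same motifs, and their part in the levels of the genes was not tested. The bases before the start site are given 5′ to 3′ on the gene's strand for NQO1 (chr16:69726561-69726810, minus strand) and FTL (chr19:48965059-48965308, plus strand).
NQO1: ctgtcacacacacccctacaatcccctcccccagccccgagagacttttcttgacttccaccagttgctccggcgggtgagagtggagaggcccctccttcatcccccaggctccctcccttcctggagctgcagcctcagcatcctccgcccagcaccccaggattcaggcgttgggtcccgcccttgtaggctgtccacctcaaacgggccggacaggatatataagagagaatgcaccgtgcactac
FTL: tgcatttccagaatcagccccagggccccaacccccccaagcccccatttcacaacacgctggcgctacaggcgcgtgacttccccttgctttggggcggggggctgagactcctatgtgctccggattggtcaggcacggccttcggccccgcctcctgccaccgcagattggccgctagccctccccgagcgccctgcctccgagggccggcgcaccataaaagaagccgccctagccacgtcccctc

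The core of the ARE was searched as TGACNNNGC on both strands, and 13.3% of the 35116 promoter windows in the RefSeq table hold it. Windows of 3 of the 7 genes held a match. TXNRD1 has 2 windows, at separate start sites. The first holds a match at positions -99 to -91 from the start (chr12:104215680-104215688) and another that spans the start site, and the second holds 1 at -102 to -94 from its own start (chr12:104286930-104286938). GCLM holds 1 match at -34 to -26 (chr1:93909456-93909464). ME1 holds 2, of which the one at -137 to -129 (chr6:83431180-83431188) overlaps an AP-1 site, TGANTCA, a motif that 7.71% of all windows hold. The matches in a stretch of 49 bases, with the core in capitals, read as follows on the gene's strand.
TXNRD1, first window: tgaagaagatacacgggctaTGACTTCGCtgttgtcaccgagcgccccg
TXNRD1, second window: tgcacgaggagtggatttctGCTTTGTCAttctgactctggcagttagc
GCLM: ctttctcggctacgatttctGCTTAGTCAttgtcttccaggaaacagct
ME1: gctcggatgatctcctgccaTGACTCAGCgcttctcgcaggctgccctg

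The windows of NQO1, FTL, GCLC and SRXN1 held no match to these letters, which says nothing of sites outside the windows. The ATF4 element TGATGNAA, on either strand, is held by 3.62% of all windows and by none of these 7 genes. A match describes a sequence and was not tested as a binding site.

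The libraries held 582233 to 4346627 counts, which is shallow for bulk RNA-seq, so genes of few counts (GCLM, HMOX1, ME1 and GCLC) are measured with least precision. Defining markers of the labelled cell type were absent: AIF1, CX3CR1, TYROBP and C1QA had no count in any library, while CD68, a lysosomal protein of macrophages, averaged at least 5 CPM (counts scaled to library size) in each group. Of 12 mesenchymal and pericyte markers, 10 or 11 reached that level in each group, as did 2 of 7 astrocyte, 2 or 3 of 7 neuron and 1 or 2 of 7 oligodendrocyte markers. The 50 µM recovery libraries stood apart. The 86 ribosomal protein genes took 2.94%, 7.58% and 5.03% of their counts, against 1.21% to 2.43% in the other 15 libraries. The summed level of the mesenchymal and pericyte markers was 7421 to 13748 CPM against 13922 to 21650 CPM elsewhere. FN1 had the highest median of these markers, 12581 CPM over all libraries, followed by COL1A1 at 1336, so the sum mostly follows FN1. In that group, at an adjusted p under 0.05 in edgeR, 3 of 11 tested markers were higher than vehicle and 4 were lower. Of all tested genes, 17.7% were higher and 10.7% lower. Log2 changes against vehicle fell with gene span, the genomic length of a gene, in that group (Spearman rho = -0.31 across 9781 genes, which are not independent replicates), but also after recovery from 25 µM (-0.26) and at 24 h at 50 µM (-0.17) and 25 µM (-0.11). In bulk RNA, fewer cells of a type and less RNA per cell cannot be told apart.

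**Figure D1:**
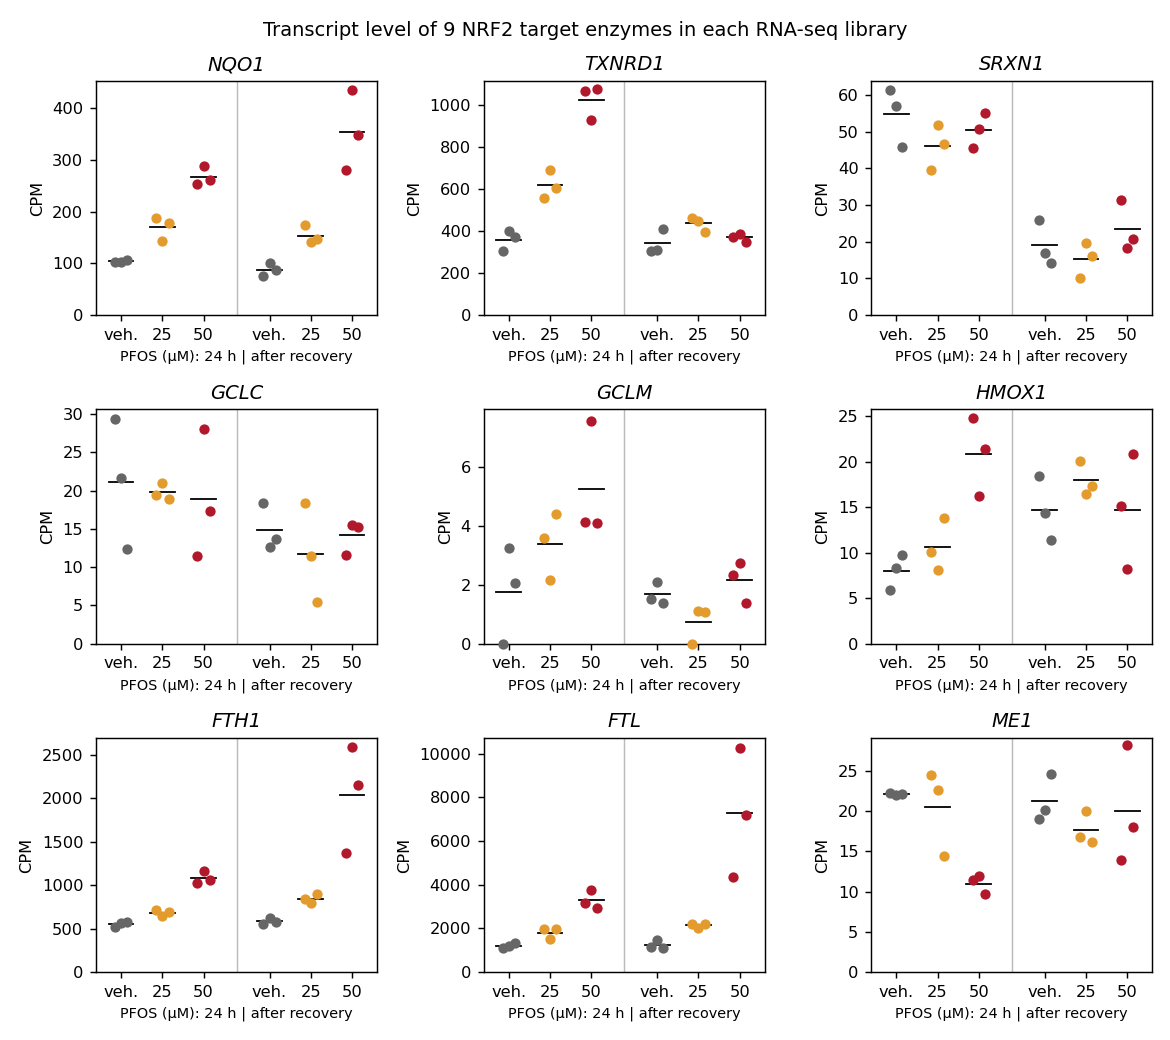
Level of each of the 9 genes in CPM (linear axis from 0) in the 18 libraries, by PFOS dose at 24 h (left of the grey line) and after recovery (right). Points are libraries and bars are means of 3: NQO1, FTH1 and FTL rise with dose at both times, TXNRD1 rises at 24 h and lies between 350 and 463 CPM in the PFOS recovery libraries.

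At 24 h, exposure to 25 µM PFOS raised NQO1 and TXNRD1, and 50 µM raised these and FTL, FTH1 and HMOX1 while lowering ME1. SRXN1 and GCLC did not pass the test at either dose. After recovery from 50 µM, NQO1, FTH1 and FTL were higher than in vehicle by 3.47-fold to 5.83-fold, and TXNRD1, HMOX1 and ME1 were not called. A gene is called where its adjusted p is under 0.05 in edgeR's quasi-likelihood test, adjusted by Benjamini-Hochberg over 9847 genes. Each log2 change is followed by its standard error (SE). At 25 µM and 24 h, 2 of the 8 tested genes were higher and 0 lower, where 0.782% of all tested genes were called higher and 0.457% lower. At 50 µM, 5 were higher and 1 lower, against 9.18% and 9.59% of all genes. The median log2 change of the 8 genes was 0.29 at 25 µM and 1.13 at 50 µM, with -0.004 and 0.01 over all genes tested. Both doses share their 3 vehicle libraries. At 50 µM, 1 of 11 tested mesenchymal and pericyte markers was higher and 5 were lower, 1 of 3 neuron markers was higher, the 1 tested oligodendrocyte marker was lower (log2 -1.02) and 0 of 2 astrocyte markers were called. Their part in these results was not tested.

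NQO1 (chr16:69709401-69726560), which reduces quinones by 2 electrons and so avoids the radical semiquinone, had 103, 103 and 107 CPM in vehicle at 24 h. It had 187, 144 and 179 CPM at 25 µM and 254, 289 and 261 CPM at 50 µM. All libraries of a higher dose lay above all of the lower one. The change was 1.61-fold at 25 µM (log2 0.69 ± 0.17, adjusted p = 0.0418) and 2.55-fold at 50 µM (log2 1.35 ± 0.17, adjusted p = 5.67e-06). The call at 25 µM was lost without any 1 of the 6 libraries compared (adjusted p up to 0.229) and in counts thinned to the smallest library, and at 50 µM it was kept under 16 of 16 alternatives.

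TXNRD1 (chr12:104215779-104350307), the cytosolic selenoenzyme that returns thioredoxin to its reduced form, had 307, 400 and 372 CPM in vehicle at 24 h. At 25 µM it had 559, 689 and 606 CPM, and at 50 µM 1068, 926 and 1075 CPM. The 3 doses did not overlap. TXNRD1 rose by 0.78 ± 0.15 on the log2 scale at 25 µM (adjusted p = 0.00586) and by 1.50 ± 0.15 at 50 µM (2.83-fold, adjusted p = 2.71e-07). At 25 µM the call was lost without library 2 of that dose (adjusted p = 0.0632), where the log2 change was 0.69.

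SRXN1 (chr20:646615-653200) encodes sulfiredoxin, which repairs overoxidised peroxiredoxins. Its level at 24 h was 61.2, 56.9 and 45.9 CPM in vehicle, 39.6, 51.8 and 46.5 CPM at 25 µM and 45.5, 50.8 and 55.1 CPM at 50 µM. These groups overlapped, and the log2 change at 50 µM was -0.08 with a 95% confidence interval of -0.55 to 0.38 (adjusted p = 0.841). That interval holds no change as large as the 1.35 of NQO1.

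The 2 subunits of glutamate-cysteine ligase, which makes the rate-limiting step of glutathione synthesis, are GCLC (catalytic, chr6:53497341-53545101) and GCLM (modifier, chr1:93885199-93909430). GCLC was at 29.4, 21.6 and 12.4 CPM in vehicle at 24 h, 19.4, 21 and 18.9 CPM at 25 µM and 11.4, 28.1 and 17.3 CPM at 50 µM. The vehicle and 50 µM libraries spread over the same range, with a log2 change of -0.06 ± 0.34 (95% confidence interval -0.77 to 0.64, adjusted p = 0.925). GCLM had 0, 9 and 7 counts in the vehicle libraries at 24 h, 5, 8 and 7 at 25 µM and 4, 7 and 8 at 50 µM. In CPM this was 0, 3.24 and 2.06, then 3.6, 2.16 and 4.4, then 4.14, 7.57 and 4.08, so the 50 µM libraries all lay above vehicle. Summed over 3 libraries, the 50 µM level was 4.91 CPM with an exact 95% Poisson interval of 2.95 to 7.66, and the vehicle level 2.26 CPM (1.29 to 3.67), intervals that overlap and cover counting error only. Without the filter on low counts, the log2 change of GCLM at 50 µM was 1.14 ± 0.64 (adjusted p = 0.287), so no difference was detectable at this depth.

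HMOX1 (chr22:35381096-35394207), the inducible heme oxygenase that opens heme to biliverdin, carbon monoxide and iron, was at 5.88, 8.29 and 9.72 CPM in vehicle at 24 h. It was at 10.1, 8.09 and 13.8 CPM at 25 µM and 24.8, 16.2 and 21.4 CPM at 50 µM. The 25 µM libraries overlapped with vehicle and the 50 µM libraries lay above both. HMOX1 rose by 1.30 ± 0.31 on the log2 scale at 50 µM (2.46-fold, adjusted p = 0.00509), on 15 to 42 counts per library. At 25 µM the log2 change was 0.27 ± 0.32 (adjusted p = 0.896).

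Ferritin, the shell in which cells store iron, is built from the heavy chain FTH1, which oxidises ferrous iron, and the light chain FTL, which favours mineralisation. FTL (chr19:48965309-48966879) was at 1102, 1214 and 1314 CPM in vehicle at 24 h, 1972, 1503 and 1955 CPM at 25 µM and 3156, 3766 and 2916 CPM at 50 µM. FTH1 (chr11:61964285-61967634) was at 516, 562 and 581 CPM, 708, 640 and 695 CPM, and 1021, 1161 and 1059 CPM in the same groups. No group of either gene overlapped with another. At 50 µM, FTL rose by 1.44 ± 0.21 on the log2 scale (2.71-fold, adjusted p = 5.97e-05) and FTH1 by 0.96 ± 0.16 (1.95-fold, adjusted p = 0.000266). Less the trend of log2 change over gene span, the changes at 50 µM were 1.17 for FTL and 0.74 for FTH1. At 25 µM, FTL was at 0.58 ± 0.21 (adjusted p = 0.315) and FTH1 at 0.30 ± 0.16 (adjusted p = 0.655), which did not pass. FTL passed at 25 µM without the 50 µM recovery group in the fit, with the 6 compared libraries alone and with no filter on low counts (adjusted p from 0.00212 to 0.679 over the alternatives). Both genes have near-identical processed pseudogenes, so the split of reads is uncertain; the 3 ferritin pseudogenes in the table held 0 to 7 counts per library in sum.

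ME1 (chr6:83210402-83431051), cytosolic malic enzyme, which makes NADPH from malate, went the other way. It was at 22.3, 22 and 22.1 CPM in vehicle at 24 h, 24.5, 22.7 and 14.5 CPM at 25 µM and 11.4, 11.9 and 9.69 CPM at 50 µM. The 50 µM libraries lay below all of the others at 24 h. ME1 fell by 1.03 ± 0.28 on the log2 scale at 50 µM (2.05-fold lower, adjusted p = 0.0113), and the call was lost without library 3 of that dose (adjusted p = 0.0782).

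**Figure D2:**
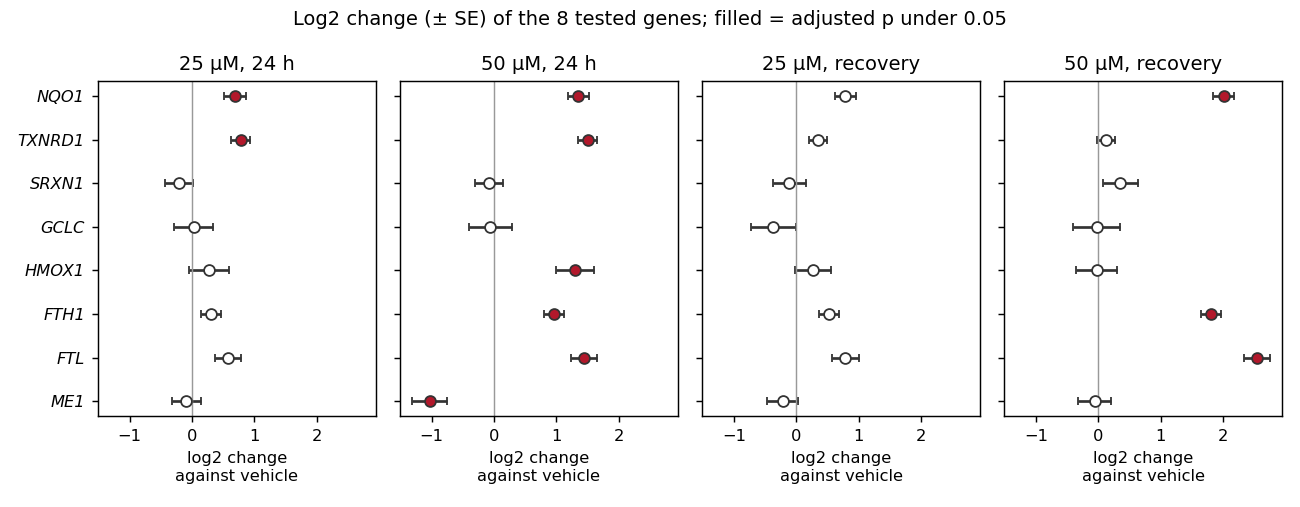
Log2 change against vehicle of the same time (points) with its SE (bars) for the 8 tested genes, in 4 panels for 25 µM and 50 µM PFOS at 24 h and after recovery. Filled points passed the adjusted p of 0.05: 2 genes at 25 µM and 6 at 50 µM at 24 h, 0 after recovery from 25 µM and 3 after recovery from 50 µM.

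Comparing the doses directly at 24 h, 5 of the 8 genes were higher and 1 lower at 50 µM than at 25 µM, against 3.79% and 3.62% of all tested genes. TXNRD1 differed by 0.73 ± 0.14 on the log2 scale (adjusted p = 0.00318), a call kept under 16 of 16 alternatives. FTL differed by 0.86 ± 0.21 (adjusted p = 0.0156), FTH1 by 0.67 ± 0.16 (adjusted p = 0.0151) and NQO1 by 0.66 ± 0.16 (adjusted p = 0.0151). Less the gene-span trend, these differences were 0.59, 0.48 and 0.64. HMOX1 differed by 1.02 ± 0.30 (adjusted p = 0.0423) and ME1 by -0.94 ± 0.28 (adjusted p = 0.0416). The count of 6 fell to 1, TXNRD1, without library 2 of 25 µM and also without library 2 of 50 µM. FTH1 was lost without library 3 of 25 µM as well, and HMOX1 and ME1 without any 1 of the 50 µM libraries or library 1 of 25 µM. HMOX1 and ME1 were also lost with the replicate block, with no filter on low counts and in thinned counts. HMOX1 was further lost with library totals without TMM scaling, and ME1 in DESeq2. HMOX1 was called under 6 of 15 alternatives and ME1 under 7 of 16.

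After recovery from 25 µM, 0 of the 8 genes were called in either direction, as were 0% of all genes each way, where the smallest adjusted p of any gene was 0.488. Before adjustment, 4 of the 8 and 693 of all 9847 genes had p under 0.05 in edgeR, and DESeq2 called 1 gene in all. NQO1 was at 75.8, 100 and 87 CPM in vehicle after recovery and at 174, 141 and 147 CPM after 25 µM. FTL was at 1144, 1485 and 1108 CPM and at 2208, 2037 and 2200 CPM, and FTH1 at 551, 626 and 581 CPM and at 843, 797 and 896 CPM. The 3 libraries of each group did not overlap for these 3 genes. The share of all genes without overlap was not counted, and a permutation of 3 against 3 libraries gives p = 0.1 at the smallest. Log2 changes were 0.79 ± 0.17 for NQO1, 0.79 ± 0.21 for FTL and 0.53 ± 0.16 for FTH1. Less the trend over gene span they were 0.75, 0.55 and 0.35. All 3 genes were called when the 50 µM recovery libraries were left out of the fit. Their changes were then nearly the same, with NQO1 at 0.78 (adjusted p = 0.0186), FTL at 0.79 (adjusted p = 0.013) and FTH1 at 0.54 (adjusted p = 0.0252). FTL was also called with no filter on low counts. NQO1 and FTH1 were thus called under 1 of 16 alternatives and FTL under 2 of 16. With the compared libraries alone, 0 of all tested genes were called. TXNRD1 was at 303, 308 and 412 CPM in vehicle and 463, 450 and 397 CPM after 25 µM (log2 0.35 ± 0.15, adjusted p = 0.634).

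After recovery from 50 µM, 3 of the 8 genes were higher than vehicle and 0 lower, where 17.7% of all genes were called higher and 10.7% lower. FTL reached 4343, 10263 and 7207 CPM, a log2 change of 2.54 ± 0.21 (5.83-fold, adjusted p = 1.01e-06). FTH1 reached 1372, 2589 and 2146 CPM (log2 1.80 ± 0.16, 3.47-fold, adjusted p = 2.11e-06). NQO1 reached 280, 435 and 349 CPM (log2 2.01 ± 0.17, 4.01-fold, adjusted p = 1.01e-06). Every library lay above every vehicle and 25 µM recovery library for these 3 genes, and the share of all genes of which that holds was not counted. The calls of these 3 genes were kept under 15 of 15 alternatives (adjusted p up to 0.0243, with the compared libraries alone). Each SE and adjusted p of the main fit pools the spread of all 18 libraries, so it does not describe the wider spread of this group. Its SD was 2960 CPM for FTL, 616 for FTH1 and 77.4 for NQO1, against 208, 37.7 and 12.3 in vehicle after recovery.

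In this group the 3 genes followed the ribosomal protein share from library to library: library 2, with the share of 7.58%, was the highest for each, and library 1, with 2.94%, the lowest. Without library 2 the log2 changes were 1.82 for NQO1, 1.58 for FTH1 and 2.21 for FTL. The ferritin genes are also short, with gene spans of 3.35 kb (FTH1) and 1.571 kb (FTL) against 17.16 kb for NQO1. Taking out the trend of log2 change over gene span left 1.95 for NQO1, 1.13 for FTH1 (from 1.80) and 1.45 for FTL (from 2.54). The part of either pattern in the result was not tested.

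**Figure D3:**
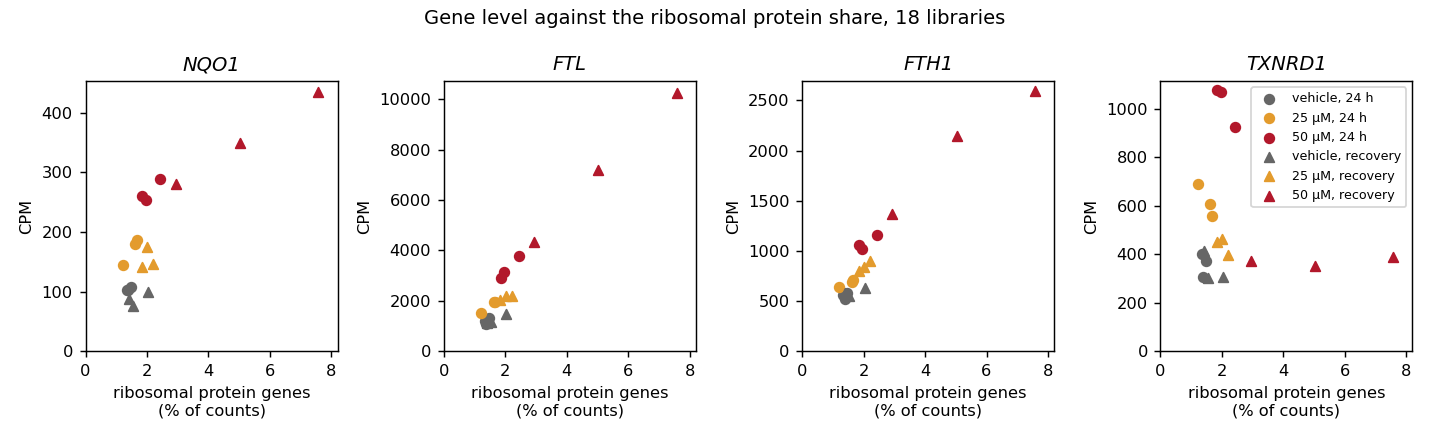
Level of NQO1, FTL, FTH1 and TXNRD1 (CPM, linear axes from 0) against the percent of counts in 86 ribosomal protein genes, with 1 point per library, circles for 24 h, triangles for recovery and colour for dose. Of the 50 µM recovery libraries the one at 7.58% is the highest for NQO1, FTL and FTH1, while TXNRD1 stays at 350 to 388 CPM in all 3.

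TXNRD1 did not stay raised after 50 µM. It was at 372, 388 and 350 CPM in the recovery libraries, within the range of its vehicle, with a log2 change of 0.12 ± 0.15 (95% confidence interval -0.19 to 0.43, adjusted p = 0.587) and of 0.36 less the gene-span trend. HMOX1 was at 15.1, 8.2 and 20.8 CPM against 18.4, 14.4 and 11.4 CPM in vehicle after recovery, a log2 change of -0.03 ± 0.33 (adjusted p = 0.952). ME1 was at 14, 28.2 and 18.1 CPM against 19.1, 20.2 and 24.7 CPM (log2 -0.06 ± 0.26, adjusted p = 0.938). The 50 µM libraries of HMOX1 and ME1 spread more widely than vehicle and overlapped with it.

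SRXN1 and GCLC were not called against vehicle after recovery from either dose. SRXN1 was at 26, 16.8 and 14.2 CPM in vehicle, 10.1, 19.7 and 16.2 CPM after 25 µM and 31.4, 18.2 and 20.8 CPM after 50 µM, where its log2 change was 0.35 ± 0.28 (adjusted p = 0.371) and 0.05 less the gene-span trend. GCLC was at 18.4, 12.6 and 13.7 CPM, 18.4, 11.4 and 5.4 CPM, and 11.6, 15.5 and 15.3 CPM in the same order of groups. GCLM had 2, 8 and 3 counts in vehicle after recovery, 0, 5 and 1 after 25 µM and 2, 3 and 1 after 50 µM, too few to compare.

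Set against 25 µM after recovery, 50 µM gave 3 higher and 0 lower genes, against 14.7% and 7.38% of all genes. They were FTL (log2 1.76 ± 0.21, adjusted p = 0.00014), FTH1 (1.27 ± 0.16, adjusted p = 0.00022) and NQO1 (1.22 ± 0.17, adjusted p = 0.000335). All 3 calls were lost, at adjusted p = 0.079, when the fit held only these 6 libraries. Less the gene-span trend, the log2 differences were 0.85, 0.70 and 1.16.

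Whether the effect of PFOS at recovery differed from that at 24 h was tested as the difference of the 2 log2 changes. At 50 µM, 2 of the 8 genes had a higher effect after recovery and 2 a lower one, against 11.6% and 7.42% of all genes. The effect on TXNRD1 was lower by 1.39 ± 0.21 on the log2 scale (adjusted p = 0.000221), a call kept under 21 of 21 alternatives, and by 1.26 less the gene-span trend. For HMOX1 the difference was -1.33 ± 0.45 (adjusted p = 0.0415). It holds a change in both groups: mean HMOX1 went from 20.8 CPM at 24 h to 14.7 CPM after recovery at 50 µM, and from 7.96 to 14.7 CPM in vehicle. HMOX1's call was lost under 10 of 20 alternatives, among them leaving out any 1 of the vehicle libraries at 24 h, 50 µM library 1 or 3 at 24 h, vehicle recovery library 1 or 2, or 50 µM recovery library 2 (adjusted p up to 0.139).

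The effect on the ferritin chains was higher after recovery than at 24 h, by 1.11 ± 0.30 for FTL (adjusted p = 0.0148) and 0.83 ± 0.23 for FTH1 (adjusted p = 0.0169). Less the gene-span trend these differences were 0.32 and 0.33, and without 50 µM recovery library 2 they were 0.78 and 0.62. The 12 libraries of the comparison alone gave adjusted p = 0.0505 and 0.0626, which did not pass. NQO1 differed by 0.65 ± 0.23 (adjusted p = 0.0544) and ME1 by 0.98 ± 0.39 (adjusted p = 0.0781); NQO1 was called without 50 µM recovery library 1 or vehicle recovery library 2 and with the stricter filter on low counts, and ME1 without 50 µM recovery library 1. At 25 µM 0 of the 8 genes differed between the times, against 0% of all genes higher and 0.0203% lower, with the largest difference for TXNRD1 (-0.42 ± 0.21, adjusted p = 1).

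**Figure D4:**
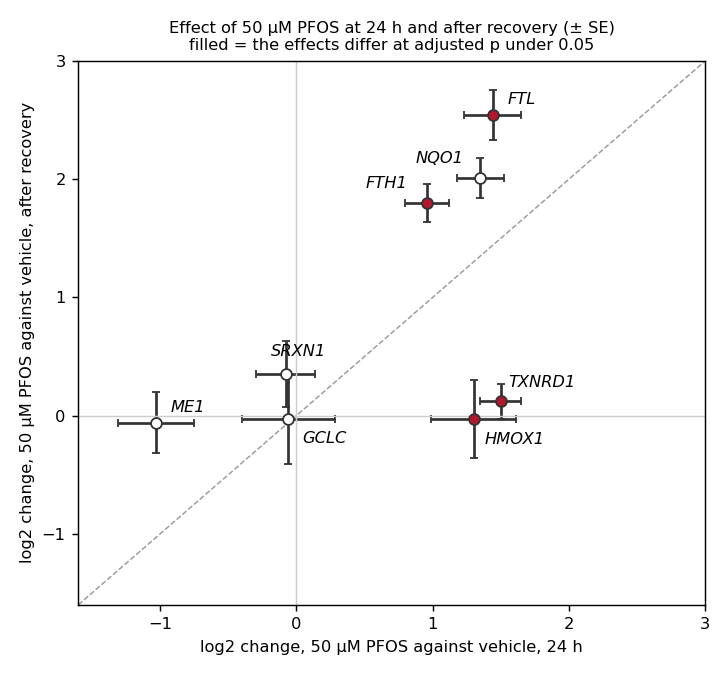
Log2 change of 50 µM PFOS against vehicle at 24 h (x axis) and after recovery (y axis) for the 8 tested genes, with SE bars and the line of equal effects (dashed). Filled points differ between the times at an adjusted p under 0.05: FTL and FTH1 lie above the line, TXNRD1 and HMOX1 below it near 0 on the y axis.

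**Figure D5:**
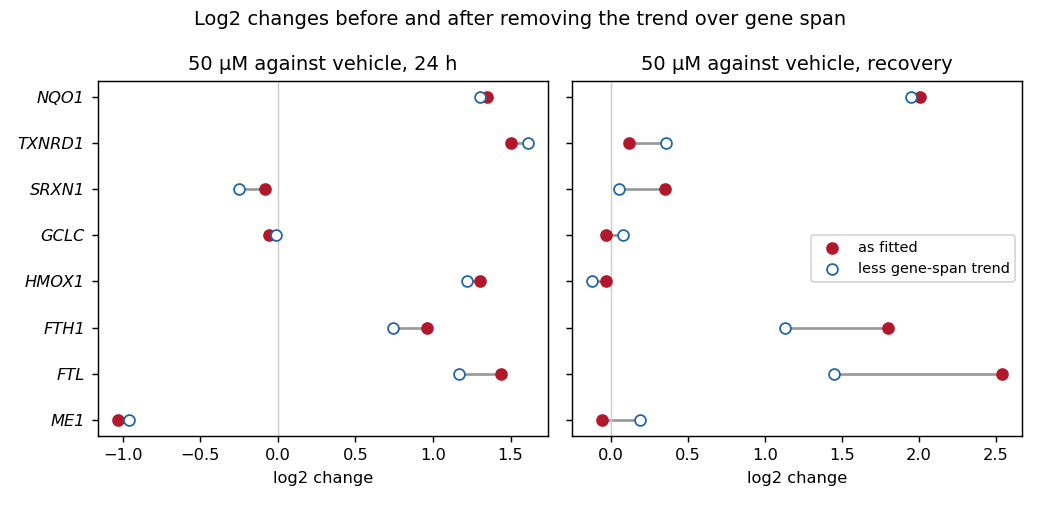
Log2 change of 50 µM PFOS against vehicle for the 8 tested genes as fitted (filled) and after taking out its trend over gene span (open), at 24 h and after recovery. FTL moves from 2.54 to 1.45 and FTH1 from 1.80 to 1.13 after recovery, while NQO1 moves from 2.01 to 1.95.

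The vehicle groups show how the genes behaved without PFOS. Between vehicle at 24 h and vehicle after recovery 0 of the 8 genes were higher and 1 lower, against 0.335% and 0.64% of all genes. SRXN1 was the one, with a log2 change of -1.56 ± 0.23 (2.94-fold lower, adjusted p = 0.00192), a call kept under 16 of 16 alternatives. All 9 SRXN1 libraries at 24 h, at 39.6 to 61.2 CPM, lay above all 9 after recovery, at 10.1 to 31.4 CPM, whatever the dose. HMOX1 lay higher in vehicle after recovery (11.4 to 18.4 CPM) than at 24 h (5.88 to 9.72 CPM) without passing (log2 0.76 ± 0.30, adjusted p = 0.271).

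Ordered by mean level, NQO1 ran from 50 µM recovery (354 ± 77.4 CPM; SD, n = 3) through 50 µM at 24 h (268 ± 18.5), 25 µM at 24 h (170 ± 22.6), 25 µM recovery (154 ± 17.8) and vehicle at 24 h (105 ± 2.16) to vehicle recovery (87.7 ± 12.3). The libraries of the first pair overlapped, as did the 25 µM groups. FTL and FTH1 had the order 50 µM recovery, 50 µM at 24 h, 25 µM recovery, 25 µM at 24 h and then the vehicle groups, and for both only the vehicle groups overlapped with their neighbour. TXNRD1 ran from 50 µM at 24 h (1023 ± 84.2 CPM) through 25 µM at 24 h (618 ± 65.7) and 25 µM recovery (436 ± 35.1), none of which overlapped, to 50 µM recovery (370 ± 19.1), vehicle at 24 h (360 ± 47.6) and vehicle recovery (341 ± 61.8), which did. HMOX1 was highest at 50 µM and 24 h (20.8 ± 4.34 CPM) and lowest in vehicle at 24 h (7.96 ± 1.94). SRXN1 and GCLC had their 3 highest means in the groups at 24 h. ME1 had its lowest at 50 µM and 24 h (11 ± 1.16 CPM).

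Ratios within a library do not depend on its scaling. Counts of FTL were 2.13, 2.16 and 2.26 times those of FTH1 in vehicle at 24 h, 2.79, 2.35 and 2.81 times at 25 µM and 3.09, 3.24 and 2.75 times at 50 µM. After recovery the ratio was 2.08, 2.37 and 1.91 in vehicle, 2.62, 2.56 and 2.46 after 25 µM and 3.17, 3.96 and 3.36 after 50 µM. At each time the vehicle libraries had the lowest ratios, so the chains changed unequally in counts. NQO1 counts were 0.209 to 0.377 times those of TXNRD1 in the 15 libraries outside the 50 µM recovery group and 0.753, 1.12 and 0.996 times in it.

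Over the 18 libraries, the 5 genes whose log2 CPM followed NQO1 most closely were FTL (Pearson r = 0.951), HDDC3 (0.95), SNHG11 (0.943), EIF6 (0.935) and MT2A (0.932), and FTH1 ranked as number 10. Among the 9 libraries at 24 h, NQO1 also went with TXNRD1 (r = 0.94), HMOX1 (0.87) and, inversely, ME1 (-0.83). In the 9 recovery libraries these were 0.21, -0.21 and -0.02, while FTL and FTH1 held at 0.99 and 0.98. These correlations are descriptions over libraries that share dose groups, scaling and depth.

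Regulators of NRF2 changed in part. Of 9 tested regulators 1 rose at 25 µM and 3 at 50 µM at 24 h, with 0 lower at either dose and a median log2 change of -0.03 at 50 µM (0.01 over all genes). Of all genes, 0.782% were higher at 25 µM and 9.18% at 50 µM. SQSTM1, the autophagy receptor p62 that sequesters KEAP1, went from 275 ± 31.8 CPM in vehicle to 482 ± 38.2 at 25 µM and 810 ± 68.3 at 50 µM (log2 1.56 ± 0.17, adjusted p = 1.16e-06). The SQSTM1 call at 25 µM (log2 0.81 ± 0.17, adjusted p = 0.0146) was lost without vehicle library 1 or 2 or 25 µM library 1 or 2. The small MAF gene MAFF rose by 1.26 ± 0.34 at 50 µM (adjusted p = 0.0118, lost without vehicle library 2) and MAFG by 0.96 ± 0.34 (adjusted p = 0.0489). The MAFG call was lost under 7 of 14 alternatives, among them leaving out vehicle library 1 or 3 or 50 µM library 1 or 3 (adjusted p up to 0.345). After recovery 0 were called at 25 µM and 2 of 9 were higher at 50 µM, near the 17.7% of all genes. They were RBX1, a ring protein of the ligase that KEAP1 serves, at 2.28 ± 0.30 (adjusted p = 3.26e-05) and SQSTM1 at 0.63 ± 0.17 (adjusted p = 0.00831, lost without 50 µM library 3 and with the 6 compared libraries alone). RBX1 spread widely after 50 µM, at 292 ± 173 CPM (SD) against 60 ± 10.2 in vehicle after recovery.

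Other known NRF2 targets had 2 of 15 tested genes higher and 0 lower at 25 µM and 4 higher and 1 lower at 50 µM at 24 h, with medians of 0.13 and 0.15. Over all genes 0.782% were higher and 0.457% lower at 25 µM, and 9.18% and 9.59% at 50 µM. SLC7A11, the cystine transporter that feeds glutathione synthesis, had 5.74 ± 1.31 CPM in vehicle, 26.7 ± 7.29 at 25 µM (log2 2.12 ± 0.34, adjusted p = 0.000869) and 45.4 ± 5.53 at 50 µM (log2 2.90 ± 0.34, adjusted p = 1.51e-06). OSGIN1, an oxidative stress response gene, rose by 1.72 ± 0.33 at 50 µM (adjusted p = 0.000613). Its call at 25 µM (log2 1.41 ± 0.32, adjusted p = 0.0221) was lost under 7 of 14 alternatives, among them leaving out any 1 vehicle library or 25 µM library 2 or 3. After recovery from 50 µM 5 were higher and 0 lower, against 17.7% and 10.7% of all genes (median 0.51, 0.15 less the gene-span trend), 3 without 50 µM library 2 or with the 6 compared libraries alone. These were led by the biliverdin reductase BLVRB (1.74 ± 0.25, adjusted p = 4.96e-05) and the peroxidase PRDX1 (1.41 ± 0.23, adjusted p = 0.000155), while SLC7A11 was at 0.51 ± 0.35 (adjusted p = 0.282). After 25 µM and recovery 0 of 15 were called, with SLC7A11 at 0.86 ± 0.31 (adjusted p = 0.565).

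Of 18 tested enzymes that use glutathione, 1 was higher and 0 lower at 25 µM at 24 h (0.782% and 0.457% of all genes), and 3 were higher and 2 lower at 50 µM (9.18% and 9.59% of all genes). CHAC1, which degrades glutathione, rose by 2.76 ± 0.31 at 50 µM (adjusted p = 2.6e-06) and the glutaredoxin GLRX by 1.44 ± 0.37 (adjusted p = 0.00904, lost in thinned counts). After recovery from 50 µM 12 of 18 were higher and 0 lower, against 17.7% and 10.7% of all genes, and 10 without 50 µM library 2, with a median of 1.21 (-0.05 over all genes) that was 0.82 less the gene-span trend. GLRX (2.23 ± 0.36, adjusted p = 0.00012), MGST3 (2.15 ± 0.36, adjusted p = 0.000183) and the glutathione transferase GSTO1 (2.09 ± 0.28, adjusted p = 2.94e-05) had the largest changes, and CHAC1 was at -0.65 ± 0.31 (adjusted p = 0.123). In CPM (SD), GLRX, MGST3 and GSTO1 spread widely in that group, at 61.2 ± 43.3, 170 ± 116 and 300 ± 152. In vehicle after recovery they were at 13.1 ± 2.08, 37.9 ± 9.39 and 70 ± 11.1. The ribosomal protein share and gene-span pattern of that group stand beside this count too, and their part in it was not tested.

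Thioredoxin and peroxiredoxin genes had 1 of 14 higher at 25 µM, 2 at 50 µM and 6 after recovery from 50 µM, with 0 lower in each. The share of all genes called higher was 0.782%, 9.18% and 17.7%, so the 2 at 50 µM are near it. The 6 after recovery were 5 without 50 µM library 2 and 4 with the 6 compared libraries alone. At 24 h SESN2, a stress-induced sestrin, rose by 1.68 ± 0.28 at 25 µM (adjusted p = 0.00197) and 2.14 ± 0.28 at 50 µM (adjusted p = 1.39e-05), and after recovery from 50 µM PRDX5, a peroxidase, rose by 1.65 ± 0.25 (adjusted p = 7.44e-05; 1.05 less the gene-span trend). Superoxide and peroxide genes had 0 of 3 called at 24 h at either dose and 2 after recovery from 50 µM (17.7% of all genes were higher), the dismutases SOD1 (1.96 ± 0.26, adjusted p = 3.41e-05) and SOD2 (1.08 ± 0.27, adjusted p = 0.00523), the latter lost without 50 µM library 2, in thinned counts and with the 6 compared libraries alone. SOD1 was at 419 ± 241 CPM (SD) after 50 µM, against 107 ± 16.8 in vehicle after recovery.

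Genes of heme and iron handling had 0 of 21 called at 25 µM and 4 higher and 1 lower at 50 µM at 24 h, with medians of -0.01 and 0.17. Of all genes, 0.782% were called higher and 0.457% lower at 25 µM, and 9.18% and 9.59% at 50 µM. The metal importer SLC39A14 went from 389 ± 8.87 to 803 ± 58.4 CPM at 50 µM (log2 1.04 ± 0.17, adjusted p = 0.00014), and the heme synthesis enzymes UROD and PPOX rose by 0.63 ± 0.17 (adjusted p = 0.0105, lost without vehicle library 2 and in thinned counts; 0.40 less the gene-span trend) and 0.80 ± 0.23 (adjusted p = 0.0193, lost without vehicle library 1, without 50 µM library 2 and in thinned counts). The count of 4 higher was 8, with 3 lower, when the 50 µM recovery libraries were left out of the fit, and 2 without vehicle library 2. After recovery from 50 µM 3 were higher and 1 lower, no more than the 17.7% and 10.7% of all genes, with 2 and 0 without 50 µM library 2, and 1 higher with the 6 compared libraries alone. In this comparison SLC39A14 was at -0.55 ± 0.17 (adjusted p = 0.0214), a call lost without vehicle recovery library 1 or 3, without 50 µM library 2 or 3 and with the 6 libraries alone.

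Of 13 other NADPH suppliers tested, 2 rose at 25 µM and 2 rose and 1 fell at 50 µM at 24 h, with medians of 0.07 and -0.12. Of all genes, 0.782% were higher and 0.457% lower at 25 µM. The counts at 50 µM are near the 9.18% higher and 9.59% lower of all genes. ALDH1L2 and MTHFD2, mitochondrial folate enzymes, went from 14.2 ± 1.41 to 117 ± 3.45 CPM (log2 3.06 ± 0.23, adjusted p = 7.41e-09) and from 336 ± 9.06 to 729 ± 33.5 CPM (log2 1.12 ± 0.15, adjusted p = 1.25e-05) at 50 µM. IDH1, cytosolic isocitrate dehydrogenase, fell by 0.92 ± 0.15 on the log2 scale (adjusted p = 0.000156). After recovery from 50 µM these 3 were at -0.08 ± 0.25, -0.09 ± 0.15 and 0.06 ± 0.15 (adjusted p = 0.842, 0.673 and 0.791), and 1 of 13 was higher, under the 17.7% of all genes, namely PGLS, a pentose phosphate enzyme, at 1.35 ± 0.40 (adjusted p = 0.0161, lost without vehicle recovery library 3, without 50 µM library 3 and with the 6 libraries alone).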

How the data were processed

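RNA-seq was done on 18 libraries of HMC3 cells, 6 groups of 3 that the labels call biological replicates with no word on separate cultures. P-values then reflect only how far these libraries differ, which may be technical. Per the labels' protocols, poly(A) RNA was amplified by Smart-seq2, which carries no molecular identifiers and does not mark strand. The authors deposited raw counts per gene symbol, not normalized, per the file headers. The builds GRCh38 and hg38 and the tools STAR, Trimmomatic, MACS2 and DESeq2 are named without versions, per the submitters' processing notes; for the counting tool and its strand setting, the sources used here give nothing. Reads of NQO1, TXNRD1 and GCLC therefore cannot be told from those of their antisense neighbours. SRXN1 overlaps a long noncoding RNA gene, and FTH1 overlaps BEST1 and another such gene. The same limit applies to reads in those shared stretches.

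The fit used edgeR 4.0.16 (R 4.3.3): filterByExpr with a minimum count of 10, leaving 9847 genes with 99.2% of the counts, TMM scaling, and a quasi-likelihood fit of 1 mean per group to all 18 libraries. Two-sided p-values received the Benjamini-Hochberg adjustment across every tested gene. CPM values are counts divided by TMM-scaled library sizes, except that levels summed over 3 libraries were divided by the library totals without TMM scaling. Where libraries are said not to overlap, the share of all genes of which that holds was not counted. The fit was tested on simulated data. There were 9 comparisons, and alternatives covered DESeq2 1.42.0, scaling, filters, dispersions, a replicate block, thinned counts, fewer libraries and the gene-span trend (lowess, fraction 0.3). Promoter windows, positions and gene spans come from RefSeq GRCh38.p14, which matched 95.3% of symbols; transcript lengths were not used here, so levels are not compared between genes.

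The members and gene lists were chosen with earlier results of these data known. All 9 members are named; of each other pathway list the up to 4 genes with the largest log2 change among those called in a comparison of PFOS with vehicle, at a mean of at least 5 CPM in a group; and the 5 genes most like NQO1. All columns had a sample, and GCLM is the member that was not tested. The values of 1 further marker gene are not reported here.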

Additional observations from a re-analysis of the deposited data

Results flagged for a closer look

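Under 50 µM PFOS the effect of 4 genes differed between the times in the test of the difference itself (edgeR, adjusted over all tested genes). TXNRD1 had a difference of -1.39 on the log2 scale, recovery effect minus 24 h effect, and HMOX1 one of -1.33. FTH1 had a difference of 0.83 and FTL one of 1.11. The effect on TXNRD1 was higher at 24 h than after recovery under each of 21 alternatives with a test. HMOX1 rests on 9 to 55 counts per library outside vehicle library 1 at 24 h, which had 5. Its mean in vehicle went from 7.96 CPM at 24 h to 14.7 CPM after recovery, which enters the difference. For FTH1 and FTL the 50 µM recovery libraries, which stand apart by ribosomal protein share, enter the difference, and the part of that share in it was not tested.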

How the results depend on the processing

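Called genes among the members did not reverse their direction under any of the alternatives, and depth limits GCLM, HMOX1, GCLC and ME1 most. At 25 µM and 24 h 2 genes were called, 1 with the replicate block, 1 in thinned counts and 0 to 1 with a library left out. After recovery from 25 µM 0 were called, 1 with no filter on low counts, 3 without the 50 µM recovery group and 0 under the other alternatives. Between the doses 6 were called at 24 h, 1 to 5 with a library left out and 4 with the replicate block, and 3 after recovery, 0 with the libraries of the comparison alone. The number of genes whose 50 µM effect differed between times was 4, with 1 in a fit of those libraries alone and 3 to 6 with a library left out, where the 6 include NQO1 and ME1. With the replicate block HMOX1 and ME1 between the doses at 24 h and NQO1 at 25 µM were lost, and no other call of a member changed. The replicate numbers were not shown to pair the libraries: in no comparison did all 3 same-numbered pairs correlate over 0.1 in their deviations, and at most 2 of 3 libraries correlated best with their own number. Counts over all genes ranged from 49 to 416 (122 as reported) at 25 µM and 1116 to 2860 (1848) at 50 µM at 24 h, 0 to 9 (0) and 864 to 4074 (2800) after recovery, 347 to 1932 (729) and 0 to 3766 (2172) between the doses, 2 to 48 (2) and 1022 to 3314 (1878) for the differences between times, and 12 to 433 (96) between the vehicle groups.

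A change of sign occurred in 60 values of 18 results, none of them called, and the cause was not tested. With a library left out, log2 changes at 24 h ran from -0.30 to 0.26 for GCLC and -0.20 to 0.08 for ME1 at 25 µM, -0.40 to 0.16 for GCLC at 50 µM and -0.42 to 0.12 for GCLC between doses. After recovery they ran from -0.42 to 0.14 for SRXN1 at 25 µM, -0.13 to 0.13 for GCLC, -0.35 to 0.30 for HMOX1 and -0.43 to 0.15 for ME1 at 50 µM, and between doses from -0.62 to 0.04 for HMOX1 and -0.23 to 0.36 for ME1. The difference between times ran from -0.01 to 0.22 for NQO1, -0.21 to 0.34 for SRXN1 and -0.23 to 0.21 for HMOX1 at 25 µM and -0.18 to 0.37 for GCLC at 50 µM, and the vehicle change from -0.11 to 0.12 for FTL and -0.16 to 0.01 for ME1. Thinned counts gave 0.01 for GCLC at 50 µM and -0.15 for ME1 between doses after recovery, -0.06 for NQO1 in the 25 µM difference, and 0.01 for GCLC and 0.11 for ME1 between vehicles. Less the gene-span trend, GCLC was at 0.08 and ME1 at 0.19 at 50 µM after recovery, and FTH1 at -0.04 and FTL at -0.14 between vehicles. The compared libraries alone gave 0.002 for GCLC and 0.02 for HMOX1 at 50 µM after recovery, and DESeq2 gave -0.003 for GCLC at 25 µM and 24 h. The 25 µM difference of HMOX1 was 0.001 with RLE factors, 0.03 with library totals and 0.02 with no filter, the replicate block, no 50 µM recovery group or its own libraries alone. The 50 µM difference of GCLC was -0.01 with library totals and with the replicate block.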
